A study of Mus musculus with 7 samples.

Results

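The immunoglobulin genes described here are the antibody gene segments that carry a symbol of their own on a whole-transcript array of sorted germinal centre B cells. They were chosen by name from the platform annotation: symbols of heavy, kappa and lambda V segments, of the constant regions, and of the J chain. The rule picked genes by symbol and not by level, but it was set with earlier results of these data known. Of several probes of a gene, as for Ighm, the brightest was kept. The symbols gave 10 genes, and Jchain, for which Igj is an older symbol, made 11 of the 21515 genes measured. They were 2 heavy chain constant regions (Ighm and Ighg3), 1 heavy chain V segment (Ighv1-54), 7 kappa chain V segments and the J chain gene. No kappa or lambda constant region, no lambda V segment and no other heavy chain isotype was among the probes with 1 symbol, so these were not analysed here. RefSeq lists 361 mouse symbols that match the same names, and the repertoire was therefore seen through few of its segments.

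The cells were B220+CD95+GL7+ B cells sorted from the spleen 7 days after mice received sheep red blood cells, an immunogen that raises a T cell-dependent response. Wild-type (WT) mice gave 4 arrays and RRas2-deficient mice, which lack the small GTPase R-Ras2, gave 3. The labels call them biological replicates and name no animals, strain, age or targeting allele, so a p-value here reflects only how far these samples scatter. Values are log2 intensities, on which a difference of 1 is a doubling, and the level of 1 probe cannot be set against that of another.

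An antibody is built from 2 identical heavy and 2 identical light chains. In each B cell precursor a V segment is joined to smaller segments by recombination, and the joined exon is spliced to a constant region, first that of IgM. In germinal centres, B cells mutate the joined V exons and can switch the heavy chain to IgG, IgE or IgA. Clones that bind antigen well expand, so the V segments in use can differ from one animal to the next. Membrane-bound antibody serves as the B cell receptor, and plasma cells secrete the same protein in bulk.

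The probe of Rras2 itself read 7.13, 7.41, 8.66 and 8.39 on the arrays of WT replicates 1 to 4 and 6.93, 6.68 and 7.12 on those of RRas2-deficient replicates 1 to 3. Its log2 difference was -0.99 ± 0.39 (SE), and limma gave it an adjusted p of 1.00. Which part of the gene was removed is not in the labels, so the probe may lie outside it and would then check nothing. The arrays fell into 2 sets by the interquartile range of their values, a measure of spread whose origin was not tested. It was 2.37 to 2.49 in a set of 3 narrower arrays (WT replicates 1 and 2, RRas2-deficient replicate 2) and 2.69 to 2.91 in a set of 4 wider arrays. Since each set holds both genotypes, results are given over all 7 arrays and within the sets. Of the 12 markers listed for germinal centre B cells 10 were measured, and their mean log2 intensity was 9.02 to 9.13 in the narrower set and 9.90 to 10.32 in the wider set.

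All 11 immunoglobulin genes had lower means in the RRas2-deficient samples, and none passed the test. The differences ran from -1.14 for Igkv8-30 to -0.06 for Igkv5-43, with a median of -0.59 on the log2 scale, against 0.005 over the 16136 genes tested. In limma with Benjamini-Hochberg adjustment over all genes, 0 of the 11 passed an adjusted p of 0.05, where 0.0124% of all genes passed. At an unadjusted p under 0.05 there was 1 member, Igkv8-30, where 0.297% of all genes were lower at that level, and 48.3% of all genes had a lower mean. All 11 passed the filter on dim genes (a mean of at least 3.48), Ighv1-54 through its WT arrays (deficient mean 3.20). Its lower mean is therefore no support in the counts of lower members here and below. In none of the 11 did the genotypes part over all 7 arrays, where 0.366% of all genes had every deficient array below every WT array. The count of lower means rested partly on RRas2-deficient replicate 2: without it 7 of 11 were lower, and Jchain (0.41), Igkv4-59 (0.22), Igkv4-72 (0.03) and Igkv5-43 (0.56) had higher means in the deficient samples. That array is the only deficient one of the narrower set. Without it, but with the array set as a block in limma, all 11 were lower. The 11 genes come from the same cells and, for the V segments, have similar sequences, so they are not independent of each other.

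**Figure D1:**
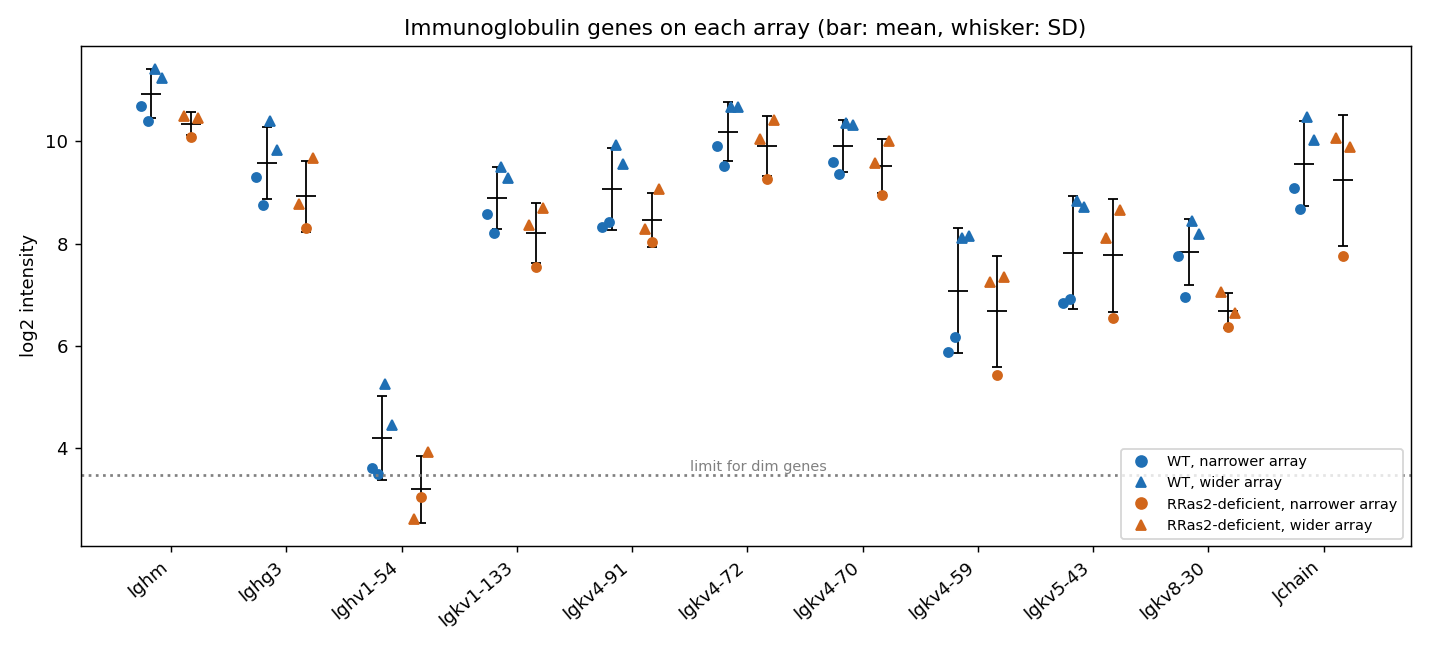
Log2 intensity (y axis) of the 11 immunoglobulin genes (x axis) on each array, with the mean (bar) and SD (whisker) of 4 WT and 3 RRas2-deficient samples; circles mark the 3 narrower and triangles the 4 wider arrays, and the dotted line is the limit of 3.48 for dim genes. In each gene the groups overlapped over all 7 arrays, while RRas2-deficient circles lay under the WT circles.

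Ighm (gene ID 16019, chromosome 12) encodes the mu constant region, the heavy chain of IgM. It read 10.69, 10.39, 11.42 and 11.23 on the arrays of WT replicates 1 to 4 and 10.49, 10.09 and 10.45 on those of RRas2-deficient replicates 1 to 3. The 2 wider WT arrays were highest, and WT replicate 2 lay among the deficient samples, so the groups overlapped. The means were 10.93 ± 0.48 (SD, n = 4) and 10.34 ± 0.22 (SD, n = 3), a difference of -0.59 ± 0.27 (SE), or 1.5-fold lower, for which limma gave an unadjusted p of 0.0642 and 1.00 after adjustment. A second Ighm probe, dimmer and not used in the counts, read 9.03, 8.23, 9.62 and 9.77 in WT and 8.09, 8.08 and 9.28 in deficient samples, a difference of -0.68. Both probes were therefore lower on average, and on both the groups overlapped.

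Ighg3 (gene ID 380795, chromosome 12) encodes the constant region of IgG3, a switched isotype. It read 9.31, 8.75, 10.39 and 9.83 on the arrays of WT replicates 1 to 4 and 8.78, 8.31 and 9.68 on those of RRas2-deficient replicates 1 to 3. RRas2-deficient replicate 3 lay above 2 of the WT arrays. The means were 9.57 ± 0.70 (SD, n = 4) and 8.93 ± 0.70 (SD, n = 3), a difference of -0.64 ± 0.46 (SE) with an adjusted p of 1.00 in limma. With 1 array left out it ran from -1.02 (without RRas2-deficient replicate 3) to -0.34 (without RRas2-deficient replicate 2), and it was -0.37 without WT replicate 3.

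The balance of IgG3 to IgM was compared by subtracting Ighm from Ighg3 on the same array. This relative value was -1.38, -1.64, -1.04 and -1.39 on the arrays of WT replicates 1 to 4 and -1.71, -1.78 and -0.77 on those of RRas2-deficient replicates 1 to 3. The deficient samples held both the lowest and the highest values. The genotypes differed by -0.05 (two-sided exact permutation test over 35 splits of the arrays, p = 0.800; the smallest p possible is 0.0286), and by 0.03 (exact permutation p = 0.886) with the second Ighm probe. It was the single contrast of isotypes that these probes allowed. The value is a relative log2 level and not a ratio of transcript amounts, and its sign between genotypes changed when single arrays were left out (-0.38 to 0.12).

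Jchain (gene ID 16069, chromosome 5) encodes the joining chain that links IgM pentamers and IgA dimers, and it is abundant in antibody-secreting cells. It read 9.08, 8.67, 10.48 and 10.03 on the arrays of WT replicates 1 to 4 and 10.06, 7.76 and 9.89 on those of RRas2-deficient replicates 1 to 3. All 4 wider arrays were above all 3 narrower ones, and the deficient values ran from below the WT range to near its top. The means were 9.57 ± 0.84 (SD, n = 4) and 9.24 ± 1.29 (SD, n = 3), a difference of -0.33 ± 0.68 (SE) and a limma p of 1.00 after adjustment.

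Jchain was the only one of the 11 with an entry in the table of RefSeq promoters (GRCm38.p6), which holds 250 bases before and 50 after each start. Its window, chr5:88527848-88528147 on the minus strand, is printed because the gene marks the secretory programme among these members. V segment promoters are known for an octamer bound by the OCT factors. The letters ATGCAAAT and, on the other strand, ATTTGCAT were searched together, and 1.74% of 32851 windows held either. The Jchain window held neither. Of 60 windows of 49 listed genes of antibody transcription, switching, secretion and receptor signalling, 2 held the octamer, those of Vpreb3, which encodes a chaperone-like partner of immunoglobulin chains, and Blnk, the adapter downstream of the B cell receptor. These are shown as stretches of 40 bases, 5′ to 3′, with the octamer in capitals, at chr10:75948239-75948278 on the plus strand and chr19:40994328-40994367 on the minus strand. The second motif, a heptamer of heavy chain V promoters, CTCATGA or on the other strand TCATGAG, was in 2.67% of all windows and not in that of Jchain.
Jchain: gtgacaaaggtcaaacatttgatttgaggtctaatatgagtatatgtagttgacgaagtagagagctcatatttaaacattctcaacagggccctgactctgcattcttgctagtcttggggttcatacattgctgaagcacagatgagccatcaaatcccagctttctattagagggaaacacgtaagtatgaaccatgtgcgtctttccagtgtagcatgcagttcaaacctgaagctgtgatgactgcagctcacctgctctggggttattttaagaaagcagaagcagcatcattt
Vpreb3: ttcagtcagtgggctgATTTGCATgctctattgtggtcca
Blnk: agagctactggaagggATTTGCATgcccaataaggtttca
The array values bear on neither motif: Vpreb3 differed by 0.09 ± 0.47 (SE) and Blnk by 0.14 ± 0.33 (SE) between genotypes, each with a limma adjusted p of 1.00.

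Ighv1-54 (gene ID 211331, chromosome 12) was the only heavy chain V segment, in place 138 of the 183 heavy V segments in RefSeq order along the chromosome. It read 3.61, 3.50, 5.25 and 4.45 on the arrays of WT replicates 1 to 4 and 2.63, 3.05 and 3.92 on those of RRas2-deficient replicates 1 to 3. WT replicates 3 and 4 stood highest, WT replicates 1 and 2 were close to the filter value of 3.48, and 2 of the deficient arrays were under it. The means were 4.20 ± 0.82 (SD, n = 4) and 3.20 ± 0.65 (SD, n = 3), a difference of -1.0 ± 0.50 (SE) and a limma p of 1.00 after adjustment. It passed the filter through its WT arrays, and the size of a difference at such low intensity is uncertain.

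The 7 kappa V segments lie on chromosome 6, at places 6 (Igkv1-133), 56 (Igkv4-91), 80 (Igkv4-72), 83 (Igkv4-70), 95 (Igkv4-59), 117 (Igkv5-43) and 131 (Igkv8-30) of 162 kappa V segments in RefSeq order. Of these, 4 belong to the Igkv4 family. Members of a family are near copies, and a probe of 1 may bind transcripts of another, so each value is uncertain as a measure of the named segment alone. Over the 7 segments the median difference was -0.40.

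Igkv8-30 (gene ID 384419) had the largest difference. It read 7.76, 6.96, 8.44 and 8.19 on the arrays of WT replicates 1 to 4 and 7.05, 6.38 and 6.64 on those of RRas2-deficient replicates 1 to 3. A single deficient array, replicate 1, exceeded the lowest WT array, replicate 2. The means were 7.84 ± 0.65 (SD, n = 4) and 6.69 ± 0.34 (SD, n = 3), a difference of -1.14 ± 0.36 (SE), or 2.21-fold lower, for which limma gave an unadjusted p of 0.0169 and 1.00 after adjustment. Leaving out any 1 array kept the direction, at -1.44 to -0.94.

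Igkv1-133 (gene ID 628027), the segment of this group farthest from the others along the chromosome, read 8.58, 8.20, 9.49 and 9.28 in WT and 8.37, 7.55 and 8.70 in deficient samples. Its difference was -0.68 ± 0.40 (SE). Igkv4-91 (gene ID 434033) read 8.33, 8.43, 9.92 and 9.56 in WT and 8.29, 8.04 and 9.06 in deficient samples, a difference of -0.60 ± 0.47 (SE). With 1 array left out the difference ran from -0.93 to -0.35 for Igkv1-133, the latter without RRas2-deficient replicate 2, and from -0.90 to -0.31 for Igkv4-91, the latter without WT replicate 3. In both segments the deficient arrays overlapped the narrower WT arrays alone, and the 2 wider WT arrays lay above every deficient array.

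Igkv4-72 (gene ID 385109) read 9.90, 9.52, 10.67 and 10.67 in WT and 10.04, 9.26 and 10.41 in deficient samples, a difference of -0.29 ± 0.39 (SE). Its neighbour Igkv4-70 (gene ID 385120) read 9.60, 9.36, 10.35 and 10.32 in WT and 9.58, 8.96 and 10.00 in deficient samples, a difference of -0.39 ± 0.34 (SE), which ran from -0.64 to -0.12 with 1 array left out, nearest to 0 in the absence of RRas2-deficient replicate 2 (-0.12) or WT replicate 3 (-0.25). These 2 segments, 3 places apart, showed the same order of arrays at the top and the bottom, with WT replicate 3 and 4 highest and RRas2-deficient replicate 2 lowest.

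Igkv4-59 (gene ID 667683) read 5.88, 6.18, 8.11 and 8.15 in WT and 7.26, 5.43 and 7.34 in deficient samples, a difference of -0.40 ± 0.77 (SE). Igkv5-43 (gene ID 381783) read 6.84, 6.91, 8.84 and 8.72 in WT and 8.12, 6.54 and 8.65 in deficient samples, a difference of -0.06 ± 0.72 (SE). In both segments all 4 wider arrays lay above all 3 narrower ones, by 1.89 and 1.82 in the mean, which exceeded either genotype difference. The adjusted p in limma was 1.00 for each of the 6 segments other than Igkv8-30 as well.

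**Figure D2:**
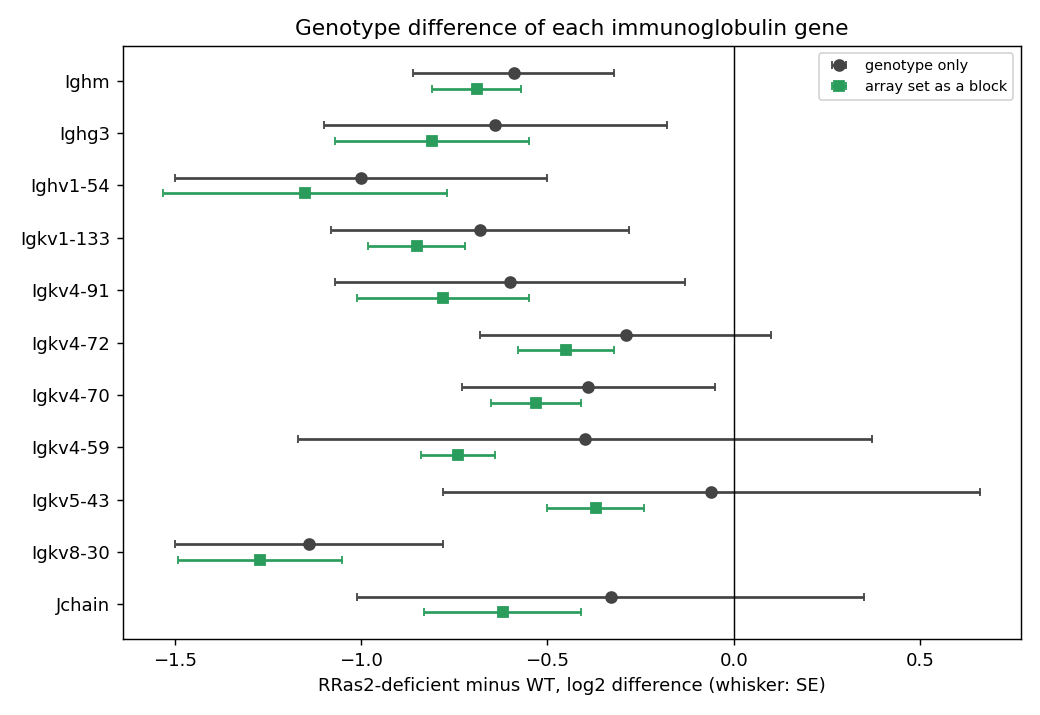
RRas2-deficient minus WT log2 difference (x axis, whiskers are limma's moderated SE) of each immunoglobulin gene (y axis), from the model of genotype alone (circles) and with the array set as a block (squares). All points lie under 0, from -1.27 to -0.06, and the SE was smaller with the block in each gene.

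The spread between samples of 1 genotype was large for these genes. The pooled SD within genotypes ran from 0.39 for Ighm to 1.17 for Igkv4-59, with a median of 0.70, against a median of 0.21 over all genes tested. Igkv4-59 had a larger SD than 99.3% of tested genes, Igkv5-43 than 99.1%, Jchain than 98.9% and Ighm than 79.2%. Much of it ran along the array sets. Every member had a higher mean on the wider arrays than on the narrower ones, by 0.51 (Ighm) to 1.89 (Igkv4-59), with a median of 0.88 against -0.024 over all genes tested. In 4 of 11 (Igkv4-59, Igkv4-72, Igkv5-43 and Jchain) all wider arrays were above all narrower ones, as in 26.9% of all genes. The highest value of all 11 was on WT replicate 3 or 4, and the lowest of 10 on RRas2-deficient replicate 2. The shares of all genes with these extremes were not counted, so these counts are a description only. For Ighv1-54 the lowest was on RRas2-deficient replicate 1.

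Within the array sets the immunoglobulin genes were lower in the deficient samples throughout. RRas2-deficient replicate 2 lay below both WT arrays of the narrower set in 11 of 11 members, as it did in 28.6% of all genes tested. In the wider set RRas2-deficient replicates 1 and 3 both lay below WT replicates 3 and 4 in 10 of 11 members, against 18.5% of all genes; in Jchain, RRas2-deficient replicate 1 (10.06) exceeded WT replicate 4 (10.03). Both conditions held for 10 of 11 members, against 7.64% of all genes. The differences were -0.45 (narrower) and -0.85 (wider) for Ighm, -0.72 and -0.88 for Ighg3, -0.98 and -1.47 for Igkv8-30, -0.84 and -0.85 for Igkv1-133, and -1.12 and -0.28 for Jchain. The narrower set holds a single deficient array, so its differences have no replicate check.

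**Figure D3:**
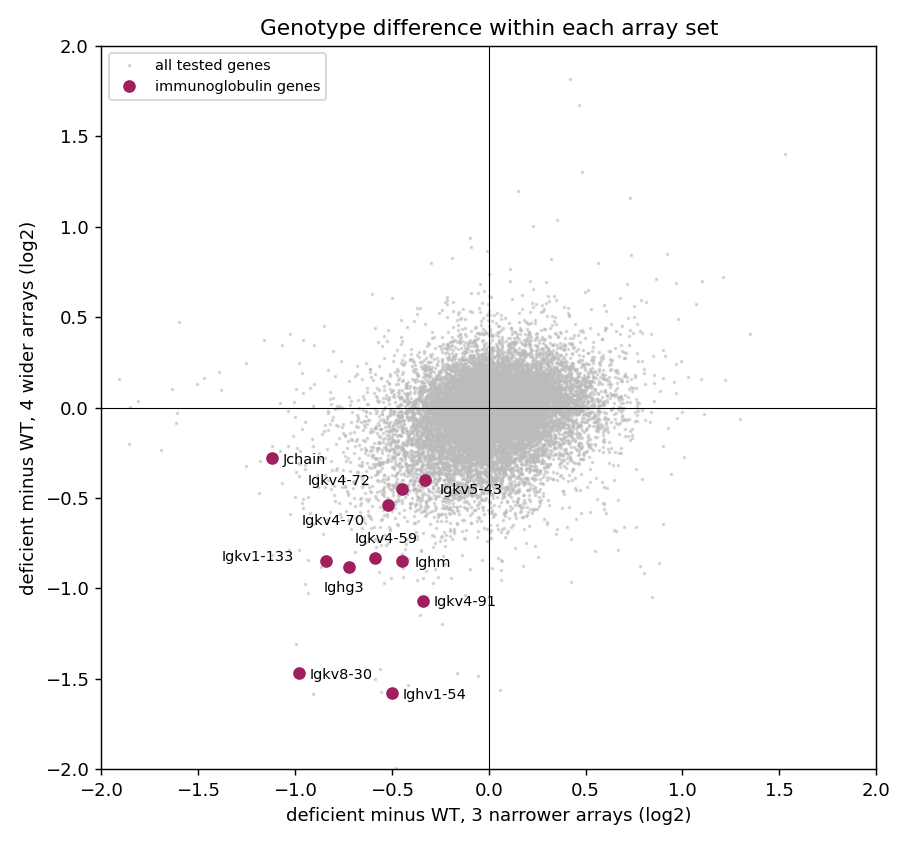
Log2 difference of RRas2-deficient minus WT within the 3 narrower arrays (x axis) and within the 4 wider arrays (y axis); grey points are all tested genes except 11 outside the axes, and coloured points are the 11 immunoglobulin genes. All 11 lie where both differences are under 0, and Igkv8-30 (-0.98, -1.47) and Ighv1-54 (-0.50, -1.58) lie lowest. Ighv1-54 passed the filter on dim genes through its WT arrays. The share of all genes with both differences under 0 was not counted.

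With the array set as a block in limma, the median difference of the 11 was -0.74, against -0.003 over all genes, and 0 of 11 passed the adjusted threshold, where 0.0124% of all genes did. All 11 had lower means (50.9% of all genes), and all 11 were lower at an unadjusted p under 0.05, against 6.24% of all genes. Both counts include Ighv1-54, which passed the filter through its WT arrays. Ighm differed by -0.69 ± 0.12 (SE), for which limma gave an unadjusted p of 0.000824 and 0.296 after adjustment. Igkv8-30 differed by -1.27 ± 0.22 (adjusted p = 0.296), Igkv1-133 by -0.85 ± 0.13 (0.275), Igkv4-59 by -0.74 ± 0.10 (0.275) and Ighg3 by -0.81 ± 0.26 (0.399). The remaining 6 ran from -1.15 for Ighv1-54 to -0.37 for Igkv5-43. The count of 11 at an unadjusted p under 0.05 fell to 7 without WT replicate 3 or without RRas2-deficient replicate 2, and was 10 or 11 without any other array, with all 11 lower in each of these fits.

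The interquartile range also differed within the wider set. It was 2.91 and 2.78 in WT and 2.73 and 2.69 in deficient samples, so that this spread and genotype cannot be told apart there. When the interquartile range entered limma as a number instead of the sets, 10 of 11 were lower (45.3% of all genes), Igkv5-43 was not (0.09), and 5 were lower at an unadjusted p under 0.05 (Igkv8-30 at -1.08, Ighv1-54 at -0.92, Igkv1-133 at -0.60, Ighm at -0.54 and Igkv4-91 at -0.51), against 1.93% of all genes. None passed after adjustment (limma adjusted p of 0.942 for each of these 5). Here too Ighv1-54 is counted although it passed the filter through its WT arrays.

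Usage of the kappa segments was read as the level of each segment minus the median of the 7 on the same array, which takes out what the segments share. Igkv1-133 was itself the median on 5 of 7 arrays, so these values are largely relative to it. Igkv4-72 was 1.57, 1.32, 1.18 and 1.39 on the arrays of WT replicates 1 to 4 and 1.75, 1.71 and 1.71 on those of RRas2-deficient replicates 1 to 3. The genotypes did not overlap, and Igkv4-72 was relatively higher in the deficient samples by 0.36 ± 0.11 (SE), for which limma gave an unadjusted p of 0.0123 and 1.00 after adjustment. Igkv4-70 did not overlap either, at 0.86 to 1.27 in WT and 1.29 to 1.42 in deficient samples. In level both segments had lower means in the deficient samples (-0.29 and -0.39), and the median that was subtracted averaged 8.82 in WT and 8.18 in deficient samples, a larger difference than that of either segment. Of all genes tested, 0.719% had a level higher in every deficient array than in every WT array, a share that refers to levels and not to values relative to a class median.

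**Figure D4:**
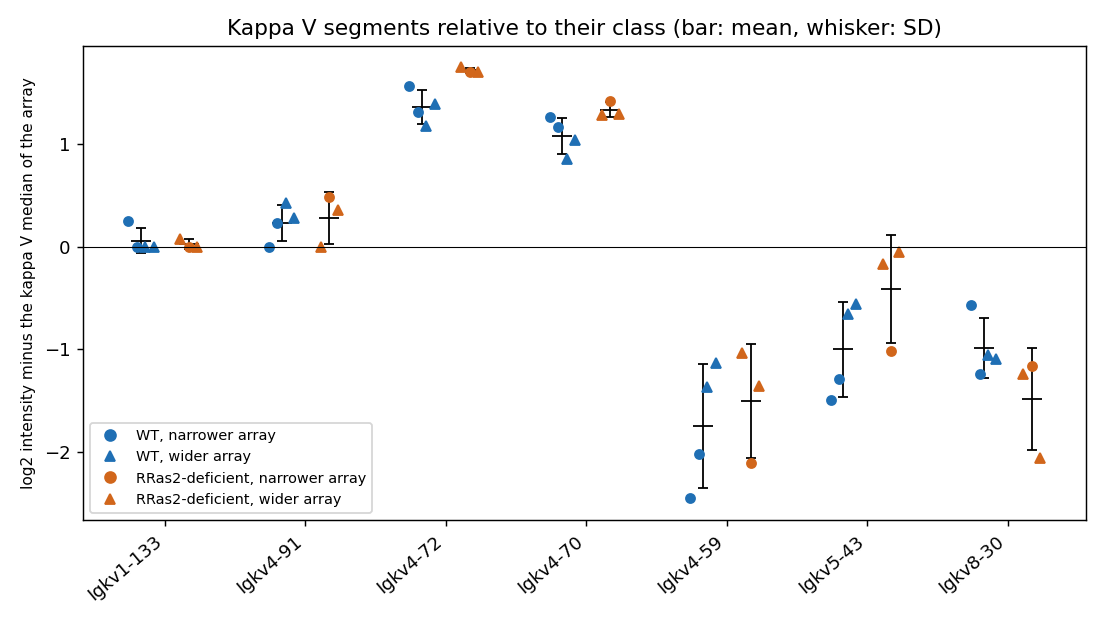
Level of each kappa V segment minus the median of the 7 segments on the same array (y axis, log2), by segment (x axis), with the mean (bar) and SD (whisker) of 4 WT and 3 RRas2-deficient samples. Igkv4-72 and Igkv4-70 sit higher in every deficient sample, and Igkv8-30 is lowest in RRas2-deficient replicate 3, at -2.06.

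Igkv8-30 stayed relatively lower in the deficient mean, at -0.57, -1.24, -1.05 and -1.09 in WT and -1.24, -1.16 and -2.06 in deficient samples, a difference of -0.50 ± 0.26 (SE, limma adjusted p = 1.00). RRas2-deficient replicate 3 set that value, and the other deficient arrays lay within the WT range. Igkv5-43 and Igkv4-59 still followed the array sets after this step, with relative levels 0.90 and 0.97 higher on the wider arrays. Across the 7 segments the Pearson correlation of levels between a pair of arrays was 0.901 to 0.989 for the 9 pairs of 1 genotype and 0.767 to 0.996 for the 12 pairs of different genotypes. These pairs share arrays and probe brightness, so the values describe the profile only. The lowest and the highest correlation were thus both between genotypes.

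Genes that act with immunoglobulin were taken from lists of their roles. Over all 7 arrays, in none of the 5 lists did a member pass the limma test in either direction, and 0 had an unadjusted p under 0.05. With the array set as a block none passed after adjustment either. At an unadjusted p under 0.05 in limma, 1 of 9 receptor partners and 2 of 17 secretion genes were lower, against 6.24% of all genes. The other lists held no such gene. The 3 were Cd79a at -0.27 ± 0.11 (SE, limma adjusted p = 0.471), Mzb1 of antibody assembly at -0.27 ± 0.09 (0.415) and Derl3 at -0.48 ± 0.18 (0.435). These 3 are named for their blocked values, after those were seen. Of the 9 tested partners of the B cell receptor 4 were higher and 5 lower (1 and 8 with the block), with the receptor kinase gene Syk at 0.14 ± 0.08 (SE), the receptor's signalling chain Cd79a at -0.18 ± 0.23, the complement receptor gene Cr2 at -0.09 ± 0.19 and Blnk at 0.14 ± 0.33. Of 14 transcription regulators of immunoglobulin genes 7 were higher and 7 lower (median -0.01; 6 and 8 with the block, median -0.06), with the B cell identity factor Pax5 at 0.15 ± 0.10, Irf4 at -0.48 ± 0.43, and Tcf3 and Tcf4, which encode E proteins that bind immunoglobulin enhancers, at 0.16 ± 0.20 and -0.09 ± 0.12. Of 11 genes of switching and hypermutation 4 were higher and 7 lower (median -0.01; 2 and 9 with the block, median -0.11), with the uracil glycosylase gene Ung at -0.23 ± 0.24, the exonuclease gene Exo1 at 0.29 ± 0.35, the end-joining ligase gene Lig4 at -0.10 ± 0.22 and Apex2 at 0.07 ± 0.20. Of 3 tested genes of the surrogate light chain and pre-B receptor 2 were higher and 1 lower (1 and 2 with the block).

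Of 17 genes of antibody secretion 15 had lower means in the deficient samples, where 48.3% of all genes did, with a median of -0.09 and none past the adjusted threshold. With the block 16 were lower, with a median of -0.13. Derl3, of endoplasmic reticulum degradation, differed by -0.40 ± 0.26 (SE), Prdm1, which drives plasma cell fate, by -0.27 ± 0.19, Irf4 by -0.48 ± 0.43 and the plasma cell survival receptor gene Tnfrsf17 by -0.16 ± 0.15. All 9 plasma cell markers, each of which is also in the secretion list, had lower means, with a median of -0.11. Their mean log2 intensity was 6.22, 6.19, 6.59 and 6.54 on the arrays of WT replicates 1 to 4 and 6.29, 6.13 and 6.32 on those of RRas2-deficient replicates 1 to 3. Within each array set the WT arrays were thus above the deficient ones, as for Ighm. With the array set as a block 9 of 9 were lower, with a median of -0.13. Of the 10 germinal centre B cell markers 5 were higher and 5 lower over all 7 arrays, with a median of -0.02, and 1 was higher and 9 lower with the block, with a median of -0.16, where 50.9% of all genes were lower. With the block 4 of the 10 were lower at an unadjusted p under 0.05 in limma, against 6.24% of all genes. None passed after adjustment. Named after these values were seen, they were Rgs13 at -0.62 ± 0.16 (SE, limma adjusted p = 0.337), S1pr2 at -0.32 ± 0.11 (0.413), Ms4a1 at -0.28 ± 0.09 (0.383) and Cd79a. The part of these marker shifts in the immunoglobulin differences was not tested. In RNA of sorted cells, fewer cells of a type and less RNA per cell cannot be told apart.

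**Figure D5:**
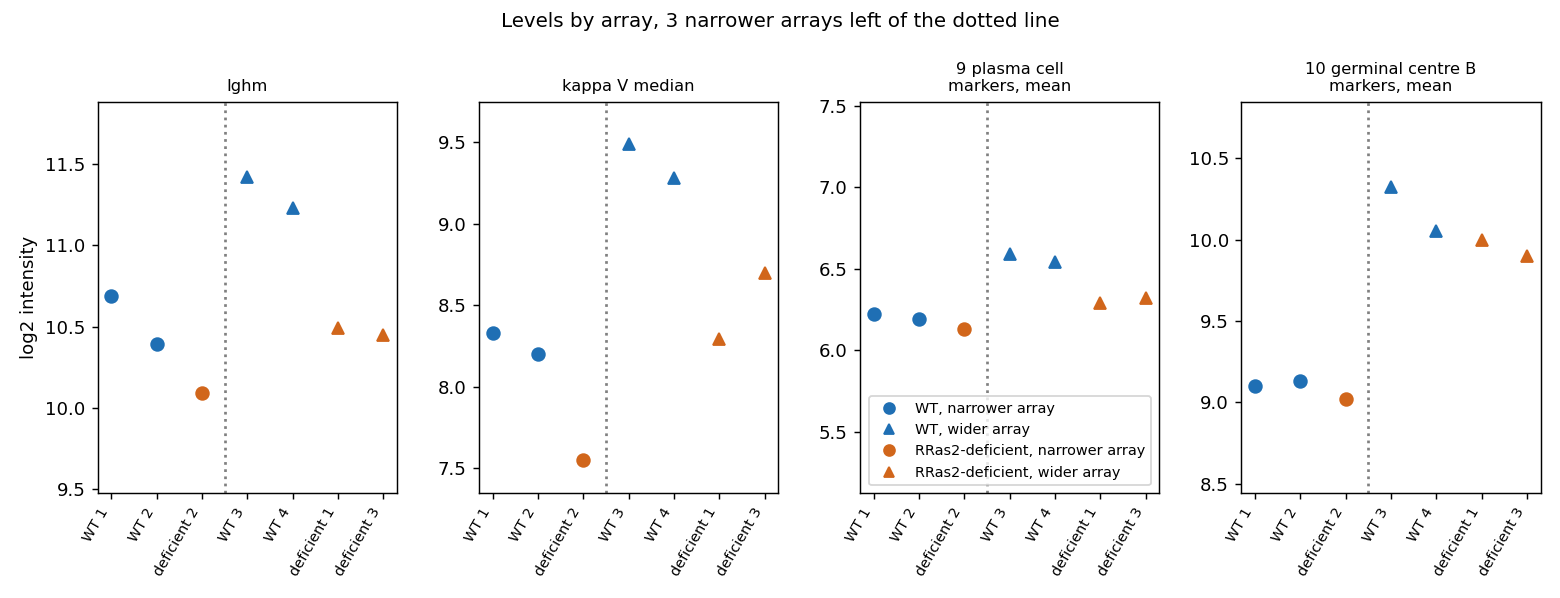
Log2 intensity (y axis) on each array (x axis) of Ighm, of the median kappa V segment, of the mean of 9 plasma cell markers and of the mean of 10 germinal centre B cell markers; the dotted line parts the 3 narrower from the 4 wider arrays, and each panel spans the same log2 range. In all 4 panels RRas2-deficient arrays lie under the WT arrays of their set, by less in the marker panels than in the immunoglobulin panels.

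Markers of other cells were read on the same arrays. The mean of 10 T cell markers was 4.20 to 4.94 in WT and 4.28 to 4.45 in deficient samples, highest in WT replicate 1. Between genotypes 1 of these 10 was higher and 9 lower, with a median of -0.09, the same median as that of the secretion genes. With the array set as a block 3 were higher and 7 lower, with a median of -0.07. For the secretion genes the block gave 16 of 17 lower, with a median of -0.13. Whether the lists share a tilt to lower means was not tested. The mean of 11 myeloid and dendritic markers was 4.5 to 4.70 in WT and 4.54 to 4.90 in deficient samples, highest in RRas2-deficient replicate 3. Of the 10 tested, 7 were higher and 3 lower, with a median of 0.07. With the array set as a block Flt3 of this list was higher, by 0.46 ± 0.12 (SE). For it limma gave an unadjusted p of 0.0053 and 0.337 after adjustment. Markers of naive follicular B cells ran against the immunoglobulin genes across the sets, at 8.34 to 8.73 in the narrower and 7.40 to 7.88 in the wider set. Between genotypes 2 of the 5 were higher and 3 lower over all 7 arrays, with a median of -0.01, and 4 were higher and 1 lower with the array set as a block, with a median of 0.23. Fcer2a was higher by 0.45 ± 0.16 (SE) with the block (limma unadjusted p = 0.0281, adjusted p = 0.435). Flt3 and Fcer2a are named after their blocked values were seen. The 4 marginal zone markers had lower means in the deficient samples, with a median of -0.10, and natural killer markers differed by a median of 0.01 over 3 tested genes.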

How the data were processed

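Each sample's total RNA was biotin-labelled and read on 1 array. The deposited log2 intensities of 25349 probes were made by the authors with RMA and oligo (no version), per the submitters' processing notes. Genome build: not given in the sources used here. Probes with 1 symbol in the platform annotation (22225) were used, and those with several (616, of which 1 names an immunoglobulin gene) or none (2508) were not. Each gene was read by its brightest probe. A filter at the 25th percentile of gene means (3.48) left 16136 genes, which limma 3.58.1 in R 4.3.3 tested (two-sided, Benjamini-Hochberg over all of them, threshold 0.05). All gene p-values come from this tool. It was tested on simulated data with independent noise and no array sets, so that test does not check the p-values under the sets seen here. The members and lists were chosen with earlier results of these data known. All members are named, as are up to 4 genes of each pathway list, by unadjusted p. The isotype contrast was tested by exact permutation. Array sets were divided where the gap between interquartile ranges was widest (0.20). Promoters are RefSeq's. The number of arrays limits precision. Alternatives were other filters, probe means, normalizations and priors, blocks for replicate number and array set, a covariate, each set by itself and omission of each array; the last with the block, and single sets for the isotype contrast, were added after seeing the data.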

Additional observations from a re-analysis of the deposited data

Results flagged for a closer look

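Among 19 tests of the 4 WT arrays for a sample far from the others, 1 was positive, where chance gives about 1 in 20. It was the level of Igkv1-133 relative to the kappa V median, whose gap between 1 array and the rest was 1.00 times the range. That value was 0.25 in WT replicate 1 and 0 in the other 3 WT arrays, on which Igkv1-133 is itself the median segment, so its 0 there follows from how the value is made. No level of the 11 immunoglobulin genes stood apart by this measure.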

How the results depend on the processing

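No immunoglobulin gene passed the adjusted threshold under any of 26 alternatives. Ighm, Ighg3, Igkv1-133, Igkv8-30 and, in the 25 fits that tested it, Ighv1-54 kept a lower mean in each. Leaving out 1 array at a time gave 7 to 11 members with a lower mean, and RRas2-deficient replicate 2 was the array whose absence gave 7. The range over these fits was -0.78 to -0.12 for the kappa V median, -0.84 to -0.40 for the heavy constants, -0.77 to -0.42 for Ighm, -1.02 to -0.34 for Ighg3, -0.64 to -0.12 for Igkv4-70, -1.36 to -0.65 for Ighv1-54, -0.80 to 0.22 for Igkv4-59, -0.54 to 0.03 for Igkv4-72, -0.50 to 0.56 for Igkv5-43, -0.74 to 0.41 for Jchain and -0.38 to 0.12 for Ighg3 minus Ighm. The array whose absence turned Igkv4-59, Igkv4-72 and Jchain was RRas2-deficient replicate 2; for Igkv5-43 it was that array (0.56), WT replicate 3 (0.28) or WT replicate 4 (0.24), and for Ighg3 minus Ighm it was that array (0.12), WT replicate 3 (0.05) or RRas2-deficient replicate 1 (0.09). Igkv5-43 was also 0.09 with the interquartile range as a covariate. Relative to their class median, Igkv4-59 (0.24), Igkv4-70 (0.25), Igkv4-72 (0.36), Igkv4-91 (0.05) and Igkv5-43 (0.59) were higher, which follows from subtracting a median that was itself lower. Whether the replicate numbers pair the samples could not be told. The correlation of deviations was -0.59, 0.78 and 0.66 for numbers 1 to 3. Its sign followed the array sets: it was positive for every pair within a set and negative for every pair across the sets. With the replicate number as a block, 0 members passed, 10 of 11 were lower, and Igkv5-43 was 0.24. At the 50th percentile filter Ighv1-54 was not tested. Except where stated, the cause of these changes was not tested. Low intensity limits Ighv1-54.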
